A study of Sus scrofa with 24 samples.

Results

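The combined antioxidant diet (VEHT) was compared with the control diet (C) in dorsal subcutaneous adipose tissue of 12 male Iberian piglets, 6 per diet, out of 24 piglets on 4 diets. The C sows received feed with 30 mg/kg of added vitamin E, as all-rac-α-tocopheryl acetate, and no added hydroxytyrosol, and the VEHT sows received 100 mg/kg of vitamin E together with 1.5 mg/kg of hydroxytyrosol. The diets were fed from gestation day 85 to the end of lactation at 28 days, and the piglets, 1 per litter, were sampled at 33 days of age, 5 days after weaning. The antioxidants were given to the sows and not to the piglets, and the doses are amounts added to the feed. The study's analysis of the feeds found more vitamin E in both than was added. The analysed feeds also differed in crude protein, starch and fat. The comparison moves both antioxidants together, so their separate parts cannot be told apart in it. Libraries were assigned to VEHT or C by the diet ending of their column in the deposited count table, and all 17607 genes that passed the filter on counts were compared, of 25880 in the table.

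Vitamin E is a lipid-soluble antioxidant of membranes that stops the chain of lipid peroxidation, and hydroxytyrosol is a phenol of the olive that scavenges radicals and is known to engage the NRF2 response to oxidants in cultured cells. Subcutaneous adipose tissue stores triacylglycerol, secretes adipokines such as leptin and adiponectin, and holds macrophages and lymphocytes beside the adipocytes. Vitamin E reaches the newborn pig mainly through colostrum and milk.

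Gene counts per library ran from 36614639 to 57119619, with a median of 44751430.5 in C and 47953549 in VEHT. Adipocyte markers were abundant in all 12 libraries, with a mean over 9 markers between 6.54 and 9.55 log2 CPM (counts per 1000000 counts of the scaled library) in C and between 6.83 and 9.41 in VEHT. On the first principal component, which held 44.7% of the variance, 2 C piglets (G041 at 154, G047 at 193) and 1 VEHT piglet (G141 at 165) lay far from the rest, against -109 to -14.3 in the other 9, and their macrophage marker means lay between 8.48 and 8.83 log2 CPM against 3.94 to 6.43. Skeletal muscle marker means ran from -0.34 to 10.1 in C and from 0.078 to 11 in VEHT, and 3 VEHT piglets and 2 C piglets were at 8.90 or above. Because the tissue was sequenced whole, more cells of a type and more RNA per cell cannot be told apart. Values without these 3 libraries are given beside a number of the results.

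No gene passed the thresholds of a q of at most 0.10 and a fold change of at least 1.5 with the quasi-likelihood test of edgeR, 0 of 17607 genes (0%), and the smallest q was 1. At an unadjusted p under 0.05 there were 369 genes (2.1%), of which 130 (0.738%) read higher in VEHT and 239 (1.36%) read lower. DESeq2 called 1 gene (0.00568%), the zinc transporter SLC30A2, with 478 genes at an unadjusted p under 0.05 (2.71%), and limma voom with sample quality weights called 0 (0%), with 811 (4.61%). In 16 genes (0.0909%) the 6 VEHT libraries did not overlap the 6 C libraries, 8 lying above them (0.0454%) and 8 below (0.0454%). Among 17607 genes some separate in this way by chance, and the number expected was not computed. A lack of overlap is thus only a description of a gene. The spread within a diet was as wide as the distance between the diets: the correlation of log2 CPM between a VEHT and a C library ran from 0.829 to 0.964, against 0.827 to 0.968 between C libraries and 0.854 to 0.955 between VEHT libraries.

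**Figure D1:**
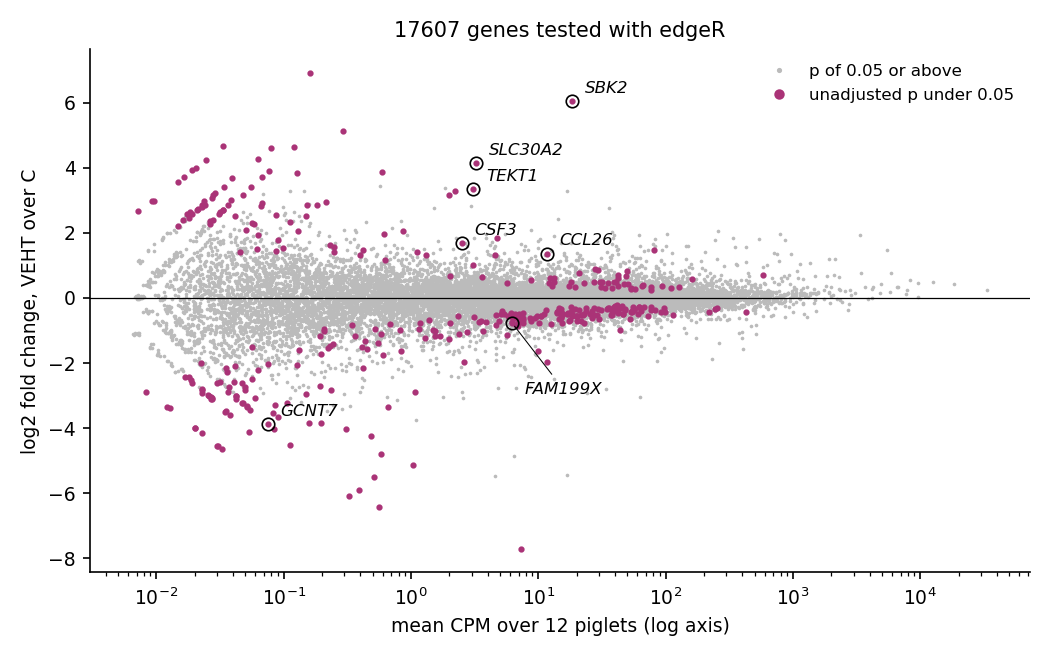
Log2 fold change of VEHT over C (vertical axis) against the mean CPM over 12 piglets (horizontal log axis) for the 17607 genes tested with edgeR. Coloured points are the 369 genes at an unadjusted p under 0.05 and rings mark named genes, and of the ringed genes SBK2, SLC30A2, TEKT1, CSF3 and CCL26 lie above the line and FAM199X and GCNT7 below it.

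A p that misses the threshold does not show that the diets gave equal levels, so each fold change was also read with its 95% interval. The interval lay within a 2-fold change in either direction for 8138 genes (46.2%) and within a 1.5-fold change for 3698 (21%). Among the 13319 genes with a mean of at least 1 CPM these shares were 60.3% and 27.8%, and 87.6% lay within a 4-fold change. The median half-width of the interval was 0.65 on the log2 scale at 1 CPM or above and 2.16 below it. Without the 3 libraries rich in immune transcripts the median half-width over all genes tested went from 0.85 to 0.69.

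The zinc transporter SLC30A2 (ENSSSCG00000026386, chromosome 6, 83478761 to 83484876 of Sscrofa11.1), which loads zinc into vesicles and is needed in humans for the zinc of milk, was the gene with the smallest p. It read 0.137 CPM in the lowest, 0.301 in the median and 0.742 in the highest C library, against 0.377, 4.45 and 14.8 CPM in VEHT. VEHT piglets G164, G173 and G208 were at 7 CPM or above, 5 of 6 VEHT libraries lay above every C library, and G141, the VEHT library rich in immune transcripts, lay inside the C range at 0.377. The log2 fold change was 4.14 ± 0.89 (standard error; 95% interval 2.21 to 6.08; unadjusted p = 0.000517 and q = 1 with edgeR), and DESeq2 gave q = 0.00174. Leaving out any 1 library kept it between 3.60 and 4.48, and without the 3 immune-rich libraries it was 4.56. Its range was 0.363 to 6.95 CPM in the VE diet (median 2.31) and 0.0986 to 1.80 in the HT diet (median 0.951), the diets with 1 antioxidant raised.

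The 250 bases before the RefSeq start of SLC30A2 are shown because it was the gene called by DESeq2, and those of CCL26, described below, because it had the largest fold change among named genes of at least 1 CPM whose diets did not overlap. Both were read from the RefSeq assembly Sscrofa11.1, 5′ to 3′ on the strand of the gene (chr6:83484877-83485126, minus strand, and chr3:10381056-10381305, plus strand). Capitals mark a match of TTCNNNNGAA, the type of site bound by STAT6, a factor of interleukin 4 and interleukin 13 signalling.
SLC30A2: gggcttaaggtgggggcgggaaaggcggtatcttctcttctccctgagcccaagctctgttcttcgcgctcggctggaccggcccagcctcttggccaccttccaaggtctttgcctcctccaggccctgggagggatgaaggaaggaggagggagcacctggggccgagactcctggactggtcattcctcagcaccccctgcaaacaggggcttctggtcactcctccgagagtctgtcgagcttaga
CCL26: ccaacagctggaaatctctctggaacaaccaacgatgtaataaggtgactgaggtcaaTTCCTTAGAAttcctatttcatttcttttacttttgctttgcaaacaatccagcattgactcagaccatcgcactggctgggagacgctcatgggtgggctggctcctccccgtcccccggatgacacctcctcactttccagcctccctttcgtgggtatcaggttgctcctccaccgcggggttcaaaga
The letters TGCGCNC and TGCACNC of metal response elements were searched on both strands and were found in neither window, while 16.2% and 9.29% of the 20607 promoters of the same length held them. TTCNNNNGAA was found 1 time before CCL26, its first base at position -192 from the start, and in 4.95% of promoters. TTCNNNGAA, the STAT5 type of site, was in neither window and in 6.36% of promoters. These are matches of letters and not sites shown to be bound.

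Of the 23 zinc transporters and metallothioneins tested, SLC30A2 included, 5 read higher in VEHT and 18 lower. Their median log2 fold change was -0.20 against -0.018 over all genes tested, of which 8369 (47.5%) read above 0. SLC30A3, which fills synaptic vesicles with zinc, read 0.196 to 1.87 CPM in C (median 0.427) and 0.104 to 0.502 in VEHT (median 0.171), a log2 fold change of -1.58 ± 0.66 (unadjusted p = 0.0335, edgeR). The ranges overlapped. SLC39A14, an importer of zinc, iron and manganese and the most abundant gene of the list, had a log2 fold change of 0.014 with an interval of -0.70 to 0.73. No member other than SLC30A2 and SLC30A3 reached an unadjusted p under 0.05.

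SBK2 (ENSSSCG00000033532), a kinase known from the heart in mice, had the largest fold change of the named genes. It read 0.021 CPM in the lowest, 0.108 in the median and 2.62 in the highest C library, and 0.0693, 12.8 and 151 CPM in VEHT. VEHT piglets G162, G164 and G208 were above every C library, at 25.2 to 151 CPM, and the other 3 VEHT libraries lay within the C range. The log2 fold change was 6.04 ± 1.89 (unadjusted p = 0.00751 with edgeR), and DESeq2 gave q = 0.12. The same 3 VEHT piglets had the highest skeletal muscle marker means of their diet, 8.90, 11 and 10.7 log2 CPM, and C piglet G025, the highest C library for SBK2, had the highest of C, 10.1. With the muscle marker mean as a covariate the log2 fold change of SBK2 was 2.82 (unadjusted p = 0.0499), and that of TEKT1, a tektin of ciliary microtubules with 24.4, 6.22 and 2.64 CPM in G164, G208 and G162, went from 3.34 to 0.69. C piglet G117, with a muscle marker mean of 9.58, read SBK2 at 0.172 CPM and TEKT1 at 0.443, within the range of the other C libraries. The covariate left SLC30A2 at 4.34.

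CCL26 (ENSSSCG00000039874, chromosome 3, 10381306 to 10385677), an eotaxin that attracts eosinophils, read higher in all 6 VEHT libraries than in any C library. It ran from 2.24 to 8.75 CPM in C (median 7.03) and from 12.1 to 31.9 in VEHT (median 14.0). C piglet G117 stood below the other C piglets and VEHT piglet G162 above the other VEHT piglets. The log2 fold change was 1.36 ± 0.34 (95% interval 0.63 to 2.09; unadjusted p = 0.00156 and q = 1 with edgeR; DESeq2 q = 0.585), and 1.42 once the 3 immune-rich libraries were left out. In the HT diet CCL26 ran from 3.68 to 126 CPM (median 16.9) and in the VE diet from 2.75 to 13.1 (median 9.22).

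CSF3, the granulocyte colony-stimulating factor (ENSSSCG00000017488, chromosome 12, 22333445 to 22335949), read 0.714 to 2.10 CPM in C (median 1.06) and 1.59 to 6.84 in VEHT (median 3.4), with 4 of 6 VEHT libraries above every C library. Its log2 fold change was 1.68 ± 0.42 (unadjusted p = 0.00164 with edgeR; DESeq2 q = 0.274), and DESeq2 called it without the 3 libraries rich in immune transcripts (q = 0.0574). CCL26 and CSF3 were the only members of the chemokine and cytokine lists at an unadjusted p under 0.05 in the 12 libraries, out of 21 and 18 tested. The median log2 fold changes of these lists were -0.39 and -0.40 in the 12 libraries, and 1.29 and 0.71 without G041, G047 and G141, where CCL26 was at 1.42 and CSF3 at 1.82. The mean of the chemokine list was 5.80 to 6.23 log2 CPM in G041, G047 and G141 and -0.068 to 3.59 in the other 9 libraries, whereas CCL26 and CSF3 read 6.96 and 1.02 CPM in G041 and 6.31 and 1.30 in G047, within the range of the other C libraries, and 13.7 and 1.59 in G141.

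**Figure D2:**
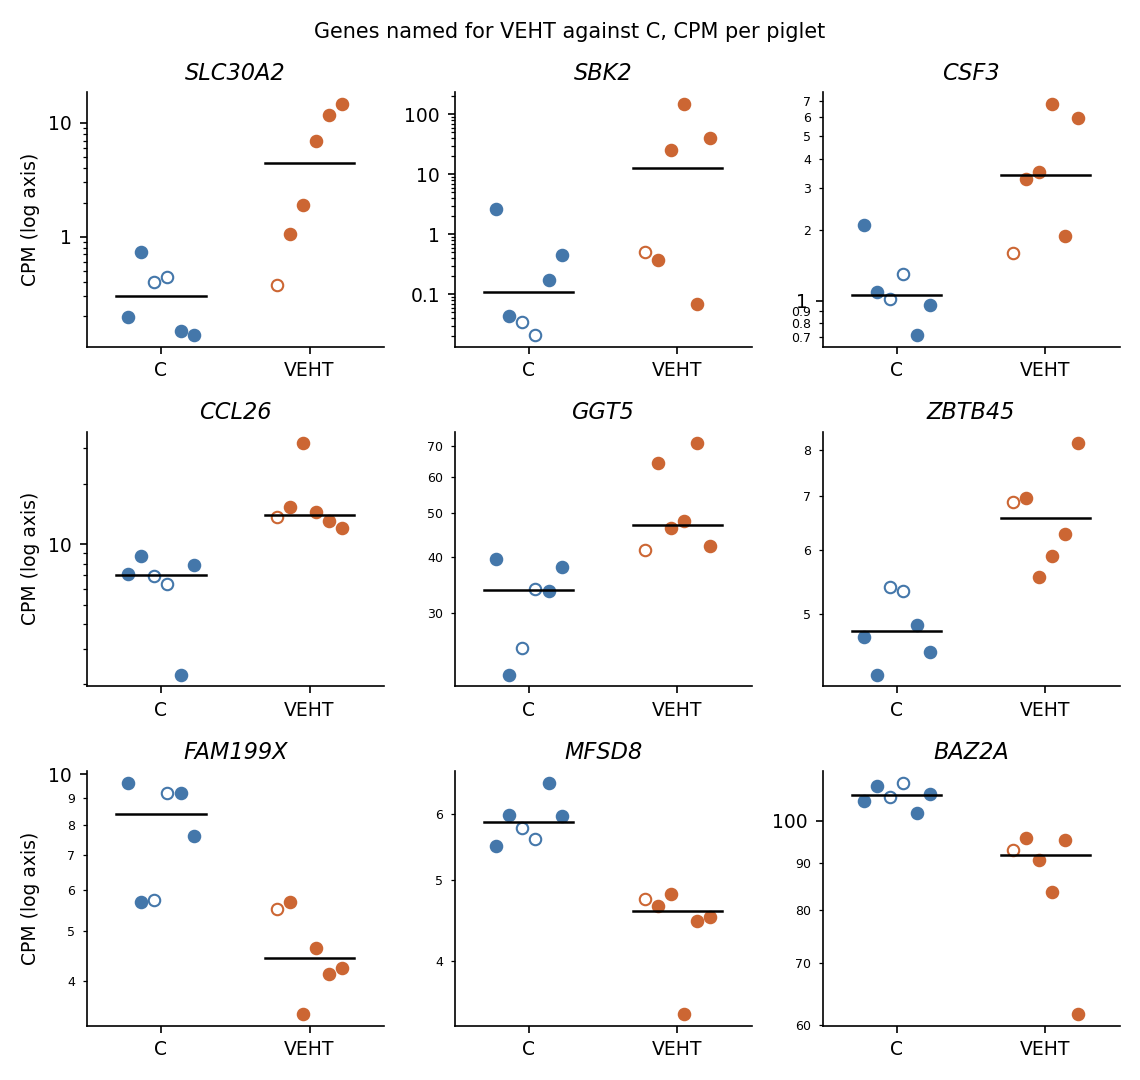
CPM of 9 named genes in each piglet of the C and VEHT diets (log axes), with the median of each diet as a line and open symbols for the piglets rich in immune transcripts (C G041 and G047, VEHT G141). SLC30A2, SBK2 and CSF3 overlapped between diets, and in the other 6 genes all VEHT piglets lay above (CCL26, GGT5, ZBTB45) or below (FAM199X, MFSD8, BAZ2A) all C piglets.

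Other genes that read higher in VEHT had smaller fold changes. GGT5, a gamma-glutamyltransferase that acts on glutathione conjugates such as leukotriene C4, read 22 to 39.5 CPM in C (median 33.8) and 41.3 to 71.2 in VEHT (median 47.1), a log2 fold change of 0.71 ± 0.20 (unadjusted p = 0.00343, edgeR). The diets did not overlap in GGT5, and its medians were 47.3 CPM in VE and 67.9 in HT. PCYT2, an enzyme of phosphatidylethanolamine synthesis, ran from 28 to 39.5 CPM in C and from 36.9 to 55.1 in VEHT, with 4 VEHT libraries above C and a log2 fold change of 0.49 ± 0.14. CPZ, a secreted carboxypeptidase with a frizzled-like domain, ran from 9.01 to 33.6 and from 27.2 to 47.3 CPM, at 0.90 ± 0.28. The zinc finger proteins ZBTB45 and ZFAT and the RNase P subunit RPP40 did not overlap between diets either, with log2 fold changes of 0.46, 0.26 and 0.24, of which ZFAT (unadjusted p = 0.104) and RPP40 (unadjusted p = 0.0803) missed a p of 0.05 with edgeR. The remaining 3 genes with VEHT above C, named here after their values were seen, were TPPP2, with a mean of 0.0136 CPM in C and 0.121 in VEHT, ENSSSCG00000002261 (0.113 and 0.353) and ENSSSCG00000037285 (0.048 and 0.209).

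Genes that read lower in VEHT were led by FAM199X. FAM199X (ENSSSCG00000012542, chromosome X, 84937153 to 84966438) read 5.67 to 9.63 CPM in C (median 8.39) and 3.46 to 5.67 in VEHT (median 4.44), so that the lowest C library and the highest VEHT library nearly met. Its log2 fold change was -0.77 ± 0.22 (unadjusted p = 0.00387 and q = 1, edgeR). MFSD8, a transporter of the lysosomal membrane, ran from 5.5 to 6.55 CPM in C and from 3.45 to 4.81 in VEHT (-0.41 ± 0.17). BAZ2A, which silences ribosomal RNA genes, ran from 102 to 110 and from 61.6 to 95.8 CPM (-0.30 ± 0.13), with VEHT piglet G208 below the rest. MSH6, of DNA mismatch repair, ran from 22.7 to 33.5 and from 20.7 to 22 CPM (-0.30 ± 0.12). In these 4 genes all VEHT libraries lay below all C libraries, and the other 4 such genes have no symbol, the most abundant being ENSSSCG00000037324 with a mean of 7.79 CPM in C and 3.53 in VEHT.

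Among genes of at least 1 CPM with a symbol the smallest p values on the lower side also belonged to NCOA2, a coactivator of nuclear receptors (-0.51 ± 0.15), PIKFYVE, a phosphoinositide kinase of endosomes (-0.48 ± 0.14), ACBD3 of the Golgi (-0.43 ± 0.13), SUCO (-0.72 ± 0.22), DIP2B (-0.81 ± 0.27), PRKDC, the catalytic subunit of the DNA-dependent protein kinase (-0.52 ± 0.17) and the helicase RAD54L2 (-0.73 ± 0.25). NCOA2, ACBD3 and PRKDC each had 5 of 6 VEHT libraries below every C library. DIP2B read 9.39 to 19.6 CPM in C and 5.07 to 14.9 in VEHT, with C piglet G041 the lowest of C and VEHT piglet G141 the highest of VEHT, and with the 3 immune-rich libraries left out its log2 fold change was -1.07. MDFI, an inhibitor of myogenic factors, had 0.31 (interval -0.29 to 0.91) and SERPINB11, of the clade B serpins, -0.53 (interval -1.56 to 0.50), and both overlapped between the diets.

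No gene of antioxidant defence, of the NRF2 list or of the superoxide-generating oxidases reached an unadjusted p under 0.05 with edgeR. The interval lay within 2-fold for 9 of 18 NRF2 and glutathione genes and for 1 of 14 oxidase genes. Larger differences thus remain possible in these lists. Antioxidant enzymes such as the superoxide dismutases and peroxidases read higher in VEHT in 19 of 26 genes with a median log2 fold change of 0.10, none at an unadjusted p under 0.05, and 18 of the 26 had an interval within 2-fold. PON3, a paraoxonase that hydrolyses oxidised lipids and lactones, ran from 5.72 to 38.2 CPM in C (median 19.7) and from 8.70 to 99.5 in VEHT (median 48.0), a log2 fold change of 1.25 ± 0.58 (unadjusted p = 0.0507, edgeR), with 3 VEHT libraries above every C library and 3 inside the C range. PON3 was lowest in the 3 libraries rich in immune transcripts, at 5.72 to 10.3 CPM, and read 12 to 99.5 in the other 9. NRF2 targets and genes of glutathione synthesis were divided, 10 of 18 above 0, with a median of 0.057, KEAP1, the inhibitor of NRF2, at 0.21 (interval -0.16 to 0.58) and ferritin light chain FTL at 0.27 (-0.72 to 1.25). Of 14 superoxide-generating oxidase genes 4 were above 0, and DUOX2, which makes hydrogen peroxide, was at -1.06 (-2.72 to 0.61). Their median of -0.22, opposite in sign to the difference of 0.021 in mean log2 CPM, went to 0.51 with the 3 immune-rich libraries left out.

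Genes that move vitamin E and cholesterol between lipoproteins and cells were read next. Of 8 genes of vitamin E transport and lipoprotein exchange 4 were above 0, with a median of -0.010, while the mean log2 CPM per library was 0.071 higher in VEHT. ABCA1, the exporter of cholesterol and of α-tocopherol to high density lipoprotein, read 16.4 to 50.6 CPM in C (median 37.2) and 11.9 to 36.6 in VEHT (median 26.2), with a log2 fold change of -0.56 (interval -1.22 to 0.11) that went to -0.94 with the 3 immune-rich libraries left out. The diets overlapped. In cholesterol synthesis 11 of 19 genes were below 0, with a median of -0.19. HMGCS1, a synthase early in the pathway, ran from 42.7 to 132 CPM in C and from 34.9 to 57.1 in VEHT (-0.66 ± 0.27, unadjusted p = 0.0329, edgeR). Without the 3 libraries HMGCS1 was at -0.32, and the median of the list was 0.021.

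Lipid storage genes did not reach an unadjusted p under 0.05 in any of 4 lists: fatty acid synthesis (median log2 fold change 0.072, 10 of 19 above 0), triacylglycerol synthesis and droplet coat (0.18, 9 of 14), lipolysis (0.068, 6 of 10) and fatty acid uptake (0.057, 7 of 11). In the same order, 7, 3, 1 and 3 genes had an interval within 2-fold, so larger differences remain possible in these lists. THRSP, a regulator of lipogenesis, ran from 47.2 to 425 CPM in C and from 29.5 to 484 in VEHT, and AGPAT2, an acyltransferase of triacylglycerol synthesis, was at 0.44 (interval -0.083 to 0.95). FABP4, the fatty acid carrier of adipocytes, ran from 595 to 6070 CPM in C and from 511 to 4010 in VEHT. The lowest values of FABP4 and of ADIPOQ, which encodes adiponectin, in both diets were those of libraries rich in immune transcripts. Adipokines were above 0 in 7 of 7 genes with a median of 0.31, and their mean per library was 5.17 to 5.76 log2 CPM in C and 5.55 to 6.25 in VEHT. ADIPOQ, the most abundant of them, was at 0.015 (interval -1.41 to 1.44), and at -0.24 without G041, G047 and G141. The adipsin gene CFD, with 202 to 606 CPM in C and 397 to 656 in VEHT (0.46, interval -0.13 to 1.04), and leptin (LEP, 0.61, interval -0.84 to 2.05) were also among the adipokines. None of the 7 was at an unadjusted p under 0.05. Of 15 insulin and glucose uptake genes 6 were above 0. IGF1R, the receptor of insulin-like growth factor 1, had a log2 fold change of -0.30 in 12 libraries and -0.67 without the 3 libraries, where DESeq2 called it (q = 0.0267).

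Nuclear genes of oxidative phosphorylation were above 0 in 23 of 24 cases, with a median log2 fold change of 0.29 and none at an unadjusted p under 0.05. COX4I1, a subunit of cytochrome c oxidase, ran from 302 to 705 CPM in C (median 380) and from 323 to 893 in VEHT (median 491), and its interval was -0.25 to 1.12. Per library the mean of the list was highest in C piglet G025, at 8.02 log2 CPM, and in VEHT piglets G164 and G208, both at 8.03, and between 6.20 and 7.09 in the other 9. G025, G164 and G208 were also the 3 piglets with the highest skeletal muscle marker means, 10.1, 11 and 10.7, although C piglet G117, at 9.58, had an oxidative phosphorylation mean of 6.47. With the muscle marker mean as a covariate the median of the list was -0.020. Mitochondrial fatty acid oxidation genes had 12 of 14 above 0 with a median of 0.22, and -0.056 with the covariate. The 7 skeletal muscle markers had a median of 1.05, 6 of them above 0, with intervals as wide as -2.06 to 5.93 for the muscle creatine kinase CKM. The part of muscle RNA in these differences was not tested beyond this covariate.

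**Figure D3:**
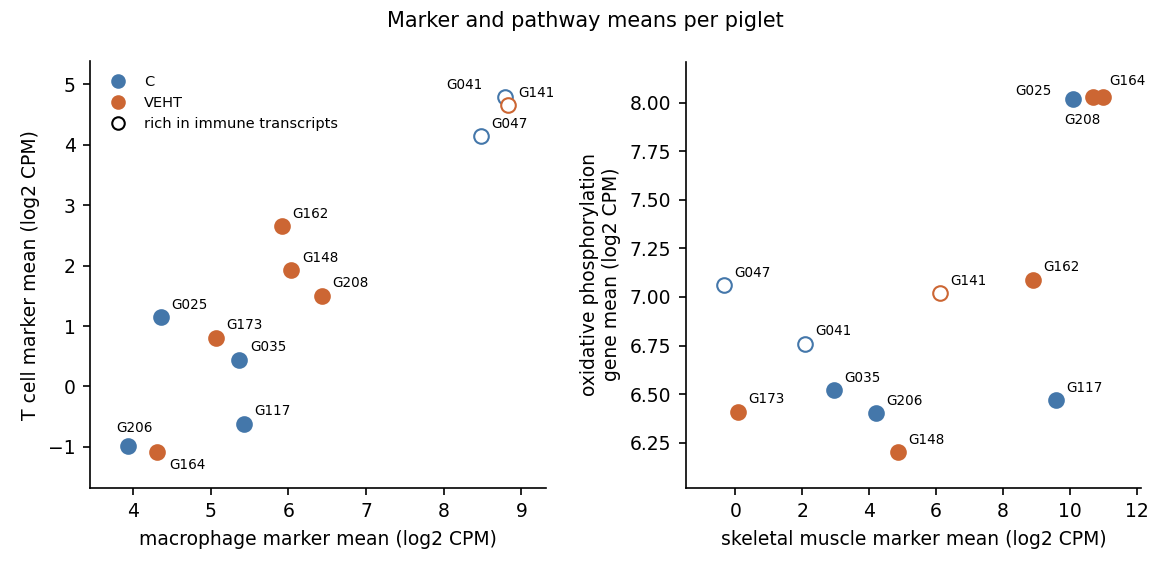
Mean log2 CPM per piglet of T cell markers against macrophage markers (left) and of oxidative phosphorylation genes against skeletal muscle markers (right), C and VEHT in separate colours and open symbols for the piglets rich in immune transcripts. G041, G047 and G141 lie apart at macrophage means of 8.48 to 8.83, and G025, G164 and G208 lie apart at oxidative phosphorylation means of 8.02 to 8.03.

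Most immune lists changed side with the libraries kept, as did some others, among them cell cycle, superoxide-generating oxidase and cholesterol synthesis genes. In the 12 libraries the fitted medians were below 0: -0.15 for macrophage markers, -0.34 for T cell markers, -0.29 for B cell markers, -0.15 for plasma cell markers, -0.48 for neutrophil markers, -0.35 for chemokine receptors and -0.49 for antigen presentation by MHC class II, and the 19 inflammasome and Toll-like receptor genes were all below 0 (median -0.45). None of these lists held a gene at an unadjusted p under 0.05. The difference of the mean log2 CPM per library had the opposite sign for macrophage, T cell, B cell and plasma cell markers, 0.037, 0.25, 0.24 and 0.15. It was below 0, as the fitted median was, for neutrophil markers (-0.13), chemokine receptors (-0.0093), MHC class II (-0.22) and the Toll-like receptor list (-0.13). The fitted fold change compares levels in which the highest libraries weigh most, and C held 2 of the 3 rich in immune transcripts. The part of these libraries in the difference of sign was not tested. Without G041, G047 and G141 the medians were 0.87 for macrophage, 1.27 for T cell, 1.23 for B cell, 1.85 for plasma cell and 1.41 for neutrophil markers, 0.87 for chemokine receptors, 0.48 for MHC class II and 0.46 for the Toll-like receptor list. Cytotoxic cell markers went from -0.43 to 0.83, dendritic cell markers from -0.39 to 0.79 and the clade B serpin list from -0.48 to 0.040. The median of the 3 mast cell markers tested went from -0.29 to 0.90, but of these only MS4A2 changed sign (-0.99 to 0.90). KIT was at -0.29 and -0.43, and HDC at 0.34 and 1.22. The macrophage mean then ran from 3.94 to 5.43 log2 CPM in C and from 4.31 to 6.43 in VEHT, and the T cell mean from -0.99 to 1.15 and from -1.09 to 2.65, with overlap in both.

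Some single immune genes showed the same dependence and others did not. LYZ, the lysozyme of macrophages and neutrophils, read 9.95 to 1570 CPM in C (median 23.2) and 14.0 to 341 in VEHT (median 29.6), with a log2 fold change of -1.86 (interval -4.76 to 1.04) that was 1.56 without the 3 libraries. JCHAIN, which joins secreted antibodies, went from -0.40 to 2.78 and CD22, a B cell lectin, from -0.76 to 1.58. Other immune genes kept their sign. LBP of the Toll-like receptor list went from -1.26 to -0.74, the plasma cell marker PRDM1 from -0.53 to -0.027 and the chemokine CCL4 from 1.08 to 0.65. Cell cycle genes also changed side, 0 of 17 above 0 with a median of -0.56 in 12 libraries and 0.12 without the 3, TOP2A, the topoisomerase of dividing cells, going from -0.95 to 0.026. Interferon-stimulated genes stayed near 0, with medians of -0.13 and -0.039. Among NF-kB genes the kinase MAP3K14 ran from 40.3 to 52.3 CPM in C and from 49.5 to 69.5 in VEHT (0.29 ± 0.12, unadjusted p = 0.0264, edgeR) and the kinase subunit CHUK from 8.50 to 16.2 and from 6.01 to 12.1 (-0.54 ± 0.23, unadjusted p = 0.0367).

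**Figure D4:**
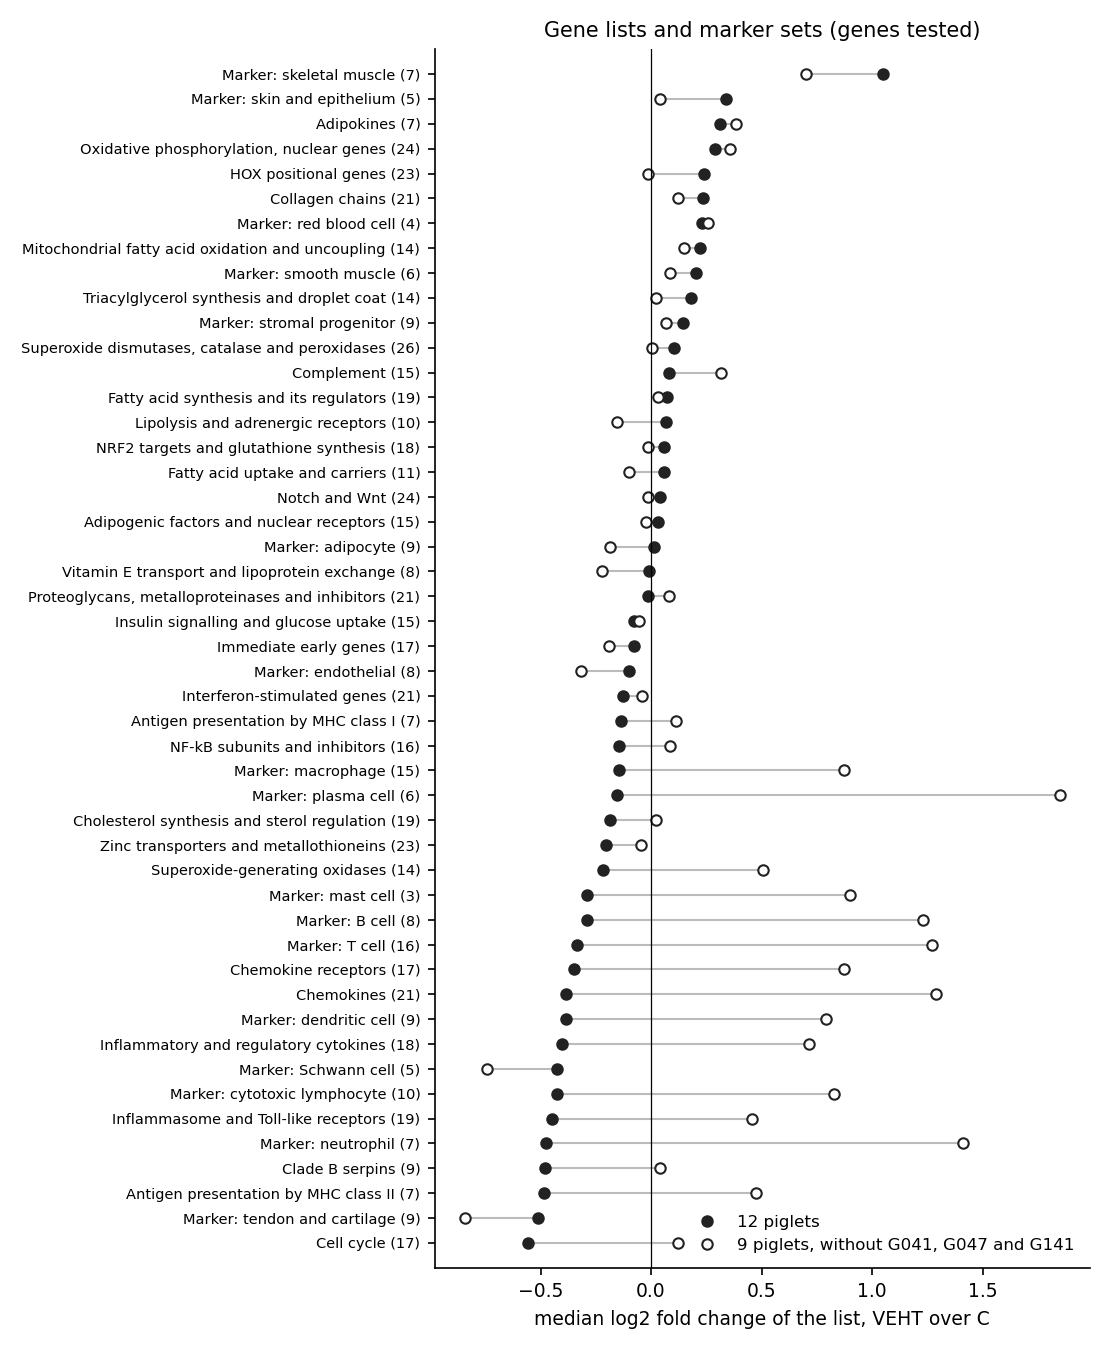
Median log2 fold change of VEHT over C for 48 gene lists and marker sets, with the number of genes tested in brackets, in 12 piglets (filled) and in the 9 piglets left without G041, G047 and G141 (open). Most immune lists lie below 0 in 12 piglets and above 0 in 9, for example plasma cell markers at -0.15 and 1.85, except complement, above 0 in both (0.080 and 0.32), and interferon-stimulated genes, below 0 in both (-0.13 and -0.039), while skeletal muscle, adipokine and oxidative phosphorylation lists lie above 0 in both.

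No collagen, other matrix or HOX gene of the lists reached an unadjusted p under 0.05 with edgeR, but most intervals were wide. They lay within 2-fold for 5 of 21 collagen chains, 6 of 21 other matrix genes and 1 of 23 HOX genes. Collagen chains had 15 of 21 above 0 with a median of 0.24, and COL3A1, a fibrillar collagen chain and the most abundant of them, was at 0.24 (interval -0.73 to 1.2). HOX genes had 18 of 23 above 0 with a median of 0.24, and -0.012 without the 3 libraries. NOTCH1, a receptor of cell fate decisions, read 62.8 to 75.8 CPM in C and 46.2 to 66.9 in VEHT, a log2 fold change of -0.28 ± 0.12 (unadjusted p = 0.0333, edgeR), with overlap, and was the only one of 24 Notch and Wnt genes at an unadjusted p under 0.05. Tendon and cartilage markers had 7 of 9 below 0 with a median of -0.51, among them COMP, a cartilage matrix protein, at -2.75 (interval -5.85 to 0.35). All 5 Schwann cell markers tested were below 0, with a median of -0.42, and of -0.74 without the 3 libraries. The myelin gene MBP among them read 56.7 to 122 CPM in C (median 104) and 33.3 to 181 in VEHT (median 43.1), with an interval of -1.32 to 0.48. KRT10, a keratin of skin, was at 1.86 ± 0.85 (unadjusted p = 0.0477, edgeR) through VEHT piglet G162 alone, with 35.5 CPM against 1.39 to 2.48 in the other 11 libraries, and was -0.22 without G162.

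Without G041, G047 and G141, 4 C and 5 VEHT libraries remained. DESeq2 then called 36 of 17623 genes (0.204%), 16 higher in VEHT (0.0908%) and 20 lower (0.113%), whereas edgeR called 0, with 886 genes at an unadjusted p under 0.05 (5.03%) and a smallest q of 0.937. Of the 16 called higher, 9 read lower in VEHT over all 12 libraries, and 0 of the 20 called lower changed side. With a symbol, the genes called higher with the largest fold changes were SLC30A2 (log2 fold change 4.58), SCN2B, a sodium channel subunit (3.26), CSF3 (1.82), FGD2, an exchange factor for the GTPase CDC42 (1.52), and HDC, which makes histamine (1.23). SCN2B read 0.0247 to 0.153 CPM in the 4 C libraries left and 0.162 to 1.27 in the 5 VEHT libraries, but 23.3, 9.05 and 2.66 CPM in G041, G047 and G141, and was at -2.29 in all 12. FGD2 likewise read 88.7 to 126 CPM in those 3 libraries and was at -0.53 in all 12, with 5.15 to 8.42 CPM in the other C and 7.21 to 32.4 in the other VEHT libraries.

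The genes with a symbol called lower in the 9 libraries with the largest fold changes were GCNT7, a glycosyltransferase (-4.58), SLC6A2, the noradrenaline transporter (-2.09), ABL2, a tyrosine kinase (-1.90), DIP2B (-1.08) and RAD54L2 (-0.98), and each of them was also below 0 in the 12 libraries. GCNT7 read 0 to 0.333 CPM in C and 0 to 0.0231 in VEHT. At this level its fitted fold change differed with the tool, -4.58 with DESeq2 and -4.26 with edgeR in the 9 libraries. SLC6A2 read 0.168 to 3.50 CPM in C (median 0.993) and 0.208 to 0.536 in VEHT (median 0.44), and C piglets G041 and G047 were below every VEHT library. ABL2 read 2.87 to 23.5 CPM in C and 1.93 to 11.3 in VEHT, and again G041 was the lowest of C and G141 the highest of VEHT. These 3 libraries were left out with the values known, so the 36 genes are a description of the 9 libraries that remained.

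Fold changes were related to transcript length, a property examined after the values had been seen. Among 10824 genes of at least 1 CPM with a symbol and a RefSeq transcript length, of 11508 (94.1%), the median log2 fold change was read in 5 groups of nearly equal size by length. It was 0.074 in the group with the shortest transcripts (204 to 1914 bases), 0.022, -0.016 and -0.058 in the next 3 and -0.11 in the longest (6303 to 54351 bases). Across genes, which are not independent replicates, Spearman's rho was -0.25, and -0.315 without the 3 libraries rich in immune transcripts. Of genes at an unadjusted p under 0.05, the 45 higher in VEHT had a median length of 2161 bases and the 129 lower in VEHT one of 6625, against 3609 over all. FAM199X, BAZ2A, DIP2B and PRKDC, which read lower in VEHT, have transcripts of 7828, 9923, 7297 and 16906 bases, in the longest group. SLC30A2, CCL26 and CSF3, which read higher, have 1432, 509 and 1604, in the shortest. These genes were picked with the values known and by no fixed rule, and the lengths of the other named genes are not given. Per library the median of long minus that of short transcripts, each relative to its mean over libraries, ran from -0.15 to 0.40 log2 units in C (median 0.11) and from -0.49 to 0.20 in VEHT (median 0.013), with the ranges overlapping and the lowest values in VEHT piglets G141 (-0.49) and G208 (-0.35). With this contrast as a covariate edgeR still called 0 genes, 2168 were at an unadjusted p under 0.05, SLC30A2 was at 3.98 and FAM199X at -0.71. RNA integrity per library was not analysed here, and its part in this relation was not tested.

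**Figure D5:**
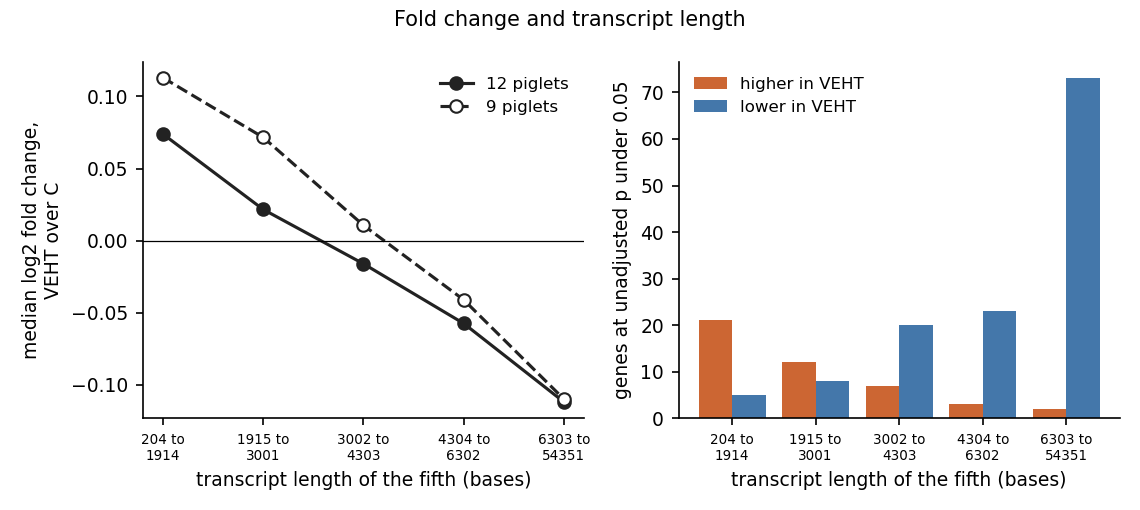
Median log2 fold change of VEHT over C (left; 12 piglets filled, 9 piglets without the libraries rich in immune transcripts open) and number of genes at an unadjusted p under 0.05 in each direction (right) by 5 groups of RefSeq transcript length in bases, 10824 genes. The median goes from 0.074 in the shortest to -0.11 in the longest group, and 73 genes of the longest group read lower in VEHT against 2 higher.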

How the data were processed

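The authors deposited 1 table of gene counts for 24 libraries of poly(A) RNA, made per the labels and the study's methods with FastQC, Trim Galore, HISAT2 and HTSeq on the Sscrofa11.1 assembly; tool versions, annotation release and strand setting are not given in the sources used here. The 12 VEHT and C columns were used. Rows for reads in no feature (8.31% to 16.0% of reads) or in several (1.48% to 2.74%) were left out. A gene was dropped when 9 or more (75%) of the 12 libraries had no count for it. edgeR 4.0.16 (TMM, quasi-likelihood F test; R 4.3.3) was the test, with Benjamini-Hochberg q over all genes tested, and DESeq2 1.42.0 and limma 3.58.1 were alternatives. A gene was called at q of at most 0.10 and a fold of at least 1.5. Standard errors are the log2 fold change over the square root of F. CPM were computed with TMM. Symbols were found for 14901 of 25880 identifiers.

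Members, the 48 gene lists (31 of function, 17 of markers) and the 3 libraries left out were chosen with earlier results of these data known. Named genes are those called by any tool, those the study names for these diets (SNORD123 and C17orf98 matched no identifier), the 8 smallest p in each direction and the 5 largest non-overlapping changes at 1 CPM or more, up to 3 per list, and the 5 largest changes in each direction called by DESeq2 without the 3 libraries. Each piglet is a separate animal and litter. Intervals are for the difference between the diets, with an error that comes from the spread between piglets. The scripts were tested on simulated counts. Antisense and overlapping genes cannot be told apart, since the strand setting is unknown.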

Additional observations from a re-analysis of the deposited data

Results flagged for a closer look

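In 14 of 156 groups of 6 libraries examined, 1 library lay far from the others by Dixon's ratio (at its 95% critical value), where chance gives about 1 in 20 groups. VEHT piglet G141, rich in immune transcripts, accounted for 6 of the 14, as mean or gene level in log2 CPM: highest for NF-kB genes (6.37, the others 4.74 to 5.21), immediate early genes (5.63, others 3.65 to 4.30), mast cell markers (3.29, others 2.04 to 2.49) and HDC (2.87, others -0.053 to 0.63), and lowest for HOX genes (-0.44, others 1.79 to 2.03) and tendon markers (-3.46, others -0.21 to 0.91). C piglet G025 was highest of C for fatty acid oxidation genes (7.73, others 5.91 to 6.59) and TEKT1 (0.69, others -2 to -1.14).

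The other 6 were single genes. CCL26 was lowest of C in G117 (1.17, others 2.66 to 3.13) and highest of VEHT in G162 (4.99, others 3.60 to 3.95). SUCO was lowest of C in G035 (2.47, others 3.42 to 3.65) and DIP2B in G041 (3.23, others 3.98 to 4.29). MFSD8 was lowest of VEHT in G164 (1.79, others 2.16 to 2.27) and BAZ2A in G208 (5.95, others 6.39 to 6.58).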

How the results depend on the processing

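edgeR called 0 genes under every filter, scaling, covariate and left-out library tried, and DESeq2 called 1 gene in 12 libraries and 36 without G041, G047 and G141. The 369 genes at an unadjusted p under 0.05 became 811 with limma voom, 245 with filterByExpr, 2168 with the transcript length contrast as a covariate, and 886 (edgeR), 1095 (DESeq2) and 1091 (limma voom) without the 3 libraries. Leaving out 1 library at a time gave 284 (without VEHT G162) to 987 (without VEHT G141), and 690 without C G025. The 16 genes without overlap between diets (0.0909%) became 295 without the 3 libraries and 23 to 91 leaving out 1 library, most without VEHT G141. Smaller groups separate more readily by chance, so these counts are not comparable with each other. The rise is no result about the libraries left out. Of the 369 genes, all kept their direction with DESeq2 and 367 with limma voom. SCN2B and FGD2 changed sign in DESeq2 without the 3 libraries, to 3.26 and 1.52. The causes of these changes were not tested. The alternatives without the 3 libraries and with covariates were chosen after seeing the data. No paired analysis was possible because the columns carry animal numbers and no replicate number shared between diets, and the study describes no pairs. Each piglet came from a separate litter and each sow received 1 diet, so no pairing was lost with the labels. With 6 piglets per diet the median half-width of the 95% interval was 0.85 on the log2 scale, and it was 0.65 for genes of at least 1 CPM and 2.16 below.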
